A study of Homo sapiens with 11 samples.

Results

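Collagens, laminins and integrins were followed in RWPE1 cells, an immortalized and non-tumorigenic line of human prostate epithelium, as the cells were moved from normoxia to hypoxia. The members are the protein-coding genes of the count table whose symbols follow the naming of collagen chains, laminin chains or integrins and that had at least 100 counts over all 11 libraries. They are 56 genes of the 60676 in the table. Among them are 25 collagens, 10 laminins, 12 integrin alpha chains, 7 integrin beta chains and 2 integrin-binding proteins, ITGB1BP1 and ITGB3BP, whose symbols begin like those of integrins. The symbols ITGAL and ITGAM fall outside the naming rule.

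RNA was sequenced from 3 normoxic samples, called 0 h here, and from samples kept at 1% oxygen for 6 h (3), 12 h (3) and 24 h (2). Every sample came from this 1 line, grown in serum-free keratinocyte medium with pituitary extract and EGF. The hypoxic media also held 10 mM HEPES, so the effects of oxygen and of the buffer cannot be told apart in any comparison with 0 h. Of the 24 h group, a library numbered 3 was not analysed here.

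Basement membranes are thin sheets of matrix under epithelia, built on networks of laminins and type IV collagen. Each laminin is a trimer of an alpha, a beta and a gamma chain, and each integrin a pair of an alpha and a beta chain that spans the plasma membrane and binds matrix outside and the cytoskeleton inside. Basal prostate epithelial cells hold on to their basement membrane through hemidesmosomes, in which the integrin pair ITGA6 and ITGB4 and the transmembrane collagen COL17A1 bind a laminin that holds the chains LAMA3 and LAMB3.

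Between 27496009 and 49488345 reads per library were counted. Scaling factors by TMM, which sets the bulk of genes level between libraries, ran from 0.539 in 24 h replicate 2 to 1.32 in a normoxic library, and 24 h replicate 1 had 0.851. Levels are given as CPM, read counts relative to library size after this scaling. The test is edgeR's quasi-likelihood one, and genes with an adjusted p under 0.05, by the Benjamini-Hochberg method over 19981 tested genes, are named called. Nothing in the labels says whether samples of a group came from separate cultures, so the spread between them may be technical. The basal keratins KRT5 and KRT14 summed with KRT15, TP63 and DSG3 to 7700 to 10600 CPM at 0 h and to 15000 to 20200 CPM at 24 h. KRT5 was called higher at 12 and 24 h and KRT14 at all 3 times, while KRT15, TP63 and DSG3 were called lower at all 3 times. The luminal markers KLK3 and KLK2 lay between 0 and 0.0231 CPM in every library, and the luminal keratins KRT8 and KRT18 were called higher at all 3 times while the luminal phosphatase ACP3 was called lower at all 3 (-1.28, -1.25 and -1.69). Fibroblast and smooth muscle markers summed to 1.58 to 4.48 CPM with DCN, LUM and DES at or near 0, endothelial markers to at most 0.471 CPM, and leukocyte markers to 0.832 to 1.25 CPM at 0 h and 2.51 to 4.79 CPM in hypoxia. Within the leukocyte markers ITGAM and CD14 were called higher at all 3 times, CD3E, LYZ and ITGAL lay between 0 and 0.169 CPM, and PTPRC was called lower. The part of these marker changes in the results was not tested. In bulk samples, fewer cells of a kind and less RNA per cell cannot be told apart.

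All 56 members passed the filter on low counts. At 6 h 26 members were called higher and 8 lower, against 25.1% and 27.7% of all tested genes. At 12 h 19 were higher and 8 lower, against 24.2% and 27.1% of all genes. At 24 h 19 were higher and 10 lower, with 29.9% and 31.3% of all genes called. Members called higher were thus 46.4%, 33.9% and 33.9% of the 56, and members called lower 14.3%, 14.3% and 17.9%. The median log2 fold change of the members was 0.483, 0.192 and 0.152 at the 3 times, and that of all tested genes -0.0021, -0.0326 and -0.0649. The split depended on the scaling. On library size alone, which moved the median of all genes to -0.32, -0.499 and -0.971, the members split into 14 higher and 11 lower at 6 h, 5 and 16 at 12 h, and 3 and 26 at 24 h. With an offset for exonic length and GC share added to TMM they split into 30 and 6, 25 and 5, and 28 and 2. On library size alone 49.3%, 52.9% and 67.7% of all tested genes were called, and 27.6%, 20% and 16.4% of those were higher. With the offset the shares called were 55.1%, 53.8% and 61.5%, of which 50.7%, 50.3% and 52.8% were higher. Counts by family on library size alone, given further on, stand beside these shares.

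**Figure D1:**
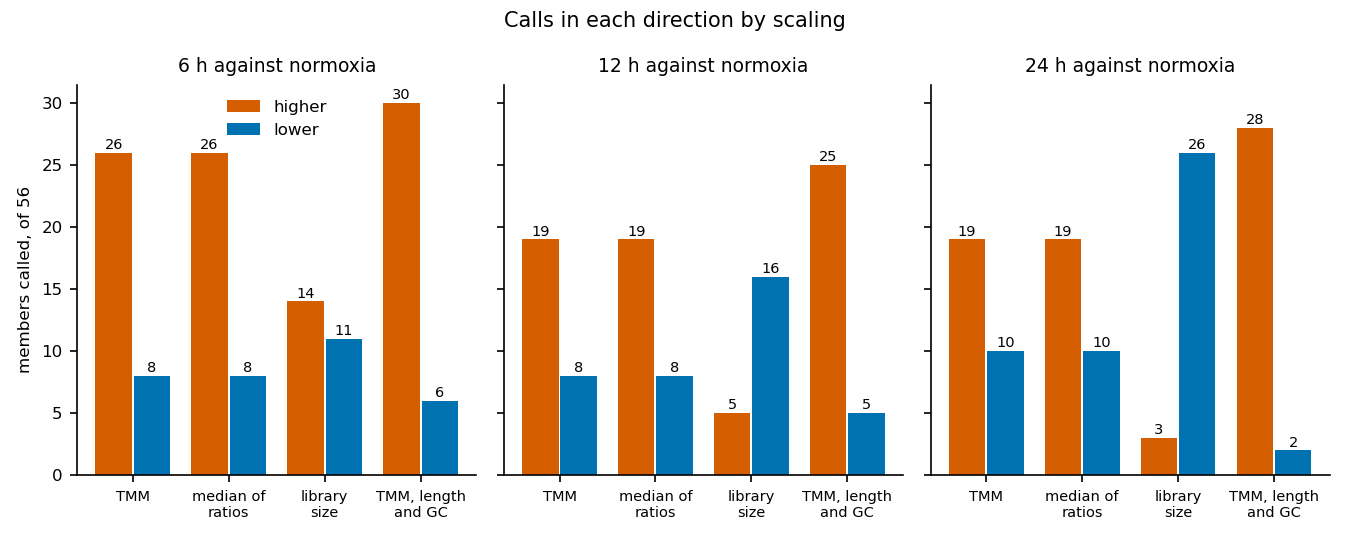
Number of the 56 members called higher (orange) or lower (blue) than normoxia at 6, 12 and 24 h, under TMM, median-of-ratios factors, library size alone, and TMM with an offset for exonic length and GC share. TMM and median of ratios gave the same numbers, and library size alone gave 3 higher and 26 lower at 24 h.

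Called higher at all 3 times were 14 members (25% of the 56, against 14.8% of all tested genes), among them the collagens COL2A1, COL4A1, COL4A2, COL6A1 and COL14A1, the laminins LAMB1 and LAMB3, the integrin chains ITGA5, ITGA6, ITGA10, ITGB1 and ITGB8, and ITGB1BP1. Of these, only ITGA5 and COL2A1 were also called higher at all 3 times on library size alone. With the length and GC offset 21 members were called higher at all 3 times, among them these 14, COL18A1 and LAMA3. Called lower at all 3 times were 5 members (8.93%, against 17.9% of all tested genes): COL27A1, LAMA5, ITGA2B, ITGA7 and ITGAX. All 5 were called lower on library size alone as well, and COL27A1 and LAMA5 also with the length and GC offset. No call against 0 h was made for 14 members, among them ITGA3 and ITGB4. Libraries did not overlap those of normoxia for 40 members at 6 h, 40 at 12 h and 32 at 24 h, while 69.6%, 72.3% and 73% of all tested genes did not overlap (71.4%, 71.4% and 57.1% of the members).

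**Figure D2:**
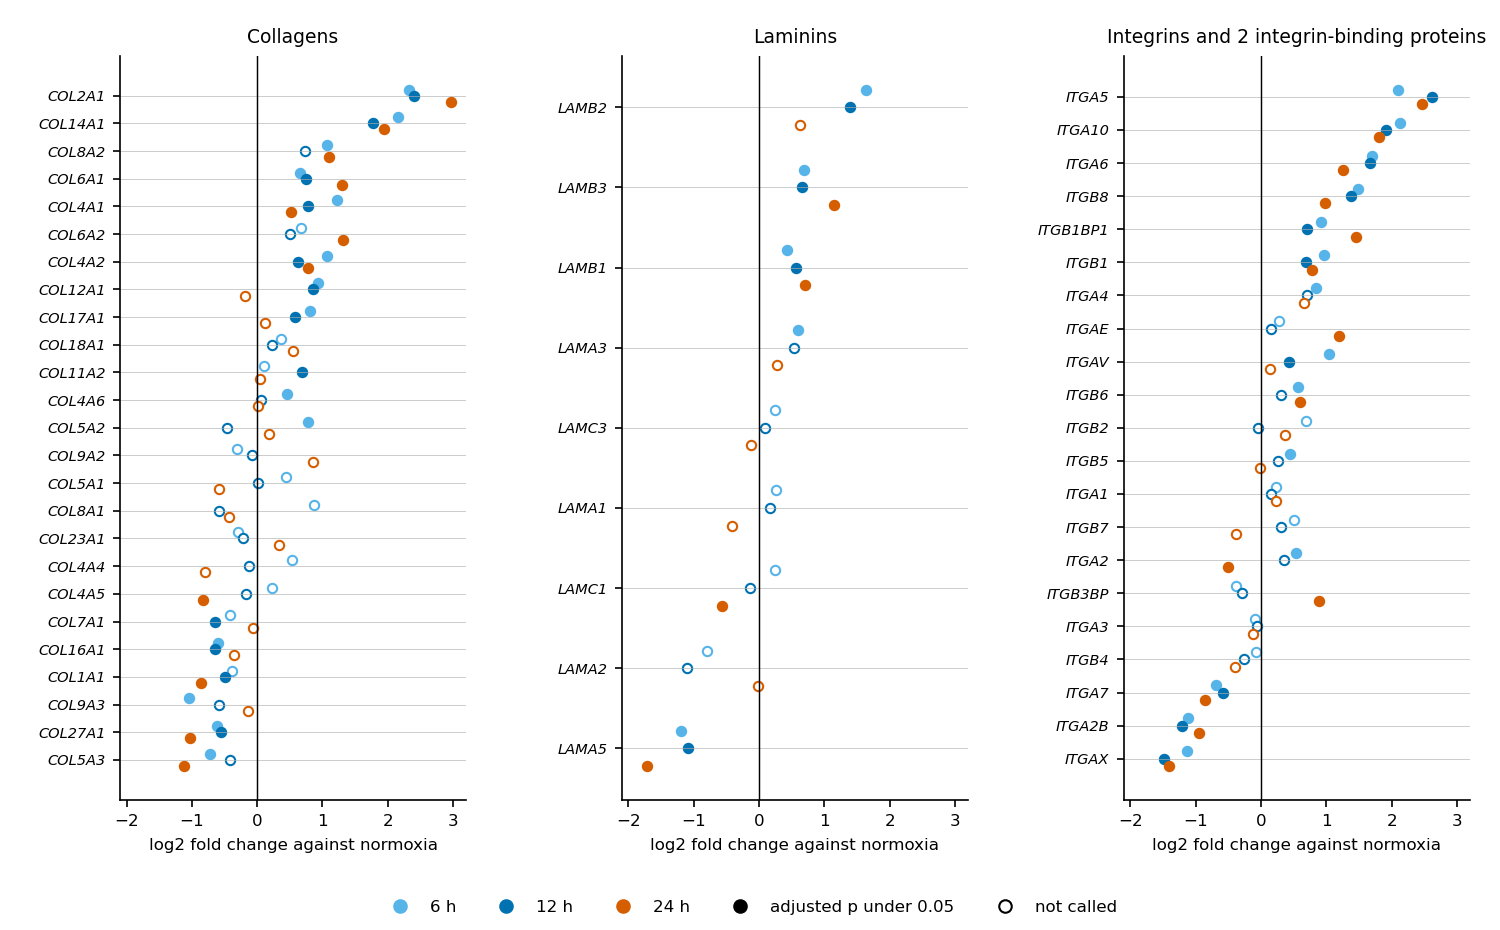
The log2 fold change of 55 members against normoxia at 6, 12 and 24 h, by family, sorted by the mean of the 3 values; filled points are called by edgeR (adjusted p under 0.05) and open points are not. ITGA5 lies above 2 at each time, LAMA5 below -1 at each time, and COL12A1, ITGAV and ITGA2 have lower values at 24 h than at 6 h.

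To compare genes with each other, CPM was divided by the length of all annotated exons of a gene in kilobases. This length can far exceed that of a single transcript. For ITGB1 it is 14561 bases against 5614 in the longest transcript, and for LAMB3 4647 against 4305. The order of genes on this scale therefore depends in part on the annotation. At 0 h, LAMB3 was highest on this scale (77.4 ± 6.17 CPM per kilobase, SD, n = 3), followed by LAMA5 (68.5 ± 6.80), ITGA6 (66.0 ± 5.50), ITGB4 (52.9 ± 4.76), COL17A1 (52.3 ± 2.77) and COL7A1 (35.1 ± 0.768). The libraries of LAMB3 and LAMA5 overlapped on this scale, as did those of LAMA5 and ITGA6 and those of ITGB4 and COL17A1. Of these 6, LAMB3, ITGA6, ITGB4 and COL17A1 are components of hemidesmosomes, and COL7A1 is the chain of the anchoring fibrils under the basement membrane. LAMA3, the alpha chain of the same laminin, lay at 3.67 ± 0.0940 CPM per kilobase, with a length summed over all its annotated exons. Of the fibril-forming collagens of connective tissue, COL1A1 had 52.8 ± 6.95 CPM at 0 h, while COL1A2 and COL3A1 had 10 and 7 counts in all 11 libraries together and are not members. In all, 26 protein-coding genes that follow the naming stayed under the minimum, of which 19 were collagens, 2 laminins (LAMA4 and LAMB4), 4 integrin chains (ITGA8, ITGA9, ITGA11 and ITGB3) and ITGB1BP2. The nearest above the minimum were LAMA2 with 101 counts, COL9A2 with 110 and LAMB2 with 114, and the nearest below were ITGB1BP2 with 80 and COL20A1 with 67.

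Laminin chains moved in opposite directions within the family. LAMB3, the beta chain of the hemidesmosomal laminin, rose at each time, while LAMA5, the alpha chain of the widespread basement membrane laminins, fell at each time. Of the 10 laminins 5 were higher and 1 lower at 6 h, 4 and 1 at 12 h, and 3 and 2 at 24 h, and on library size alone 2 and 1, 0 and 3, and 0 and 4. Called higher were 50%, 40% and 30% of laminins, beside 25.1%, 24.2% and 29.9% of all tested genes, with nearly the same share at 24 h.

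LAMA5 had 908, 1090 and 941 CPM in the normoxic libraries. After 6 h its levels were 269, 459 and 561 CPM, after 12 h 567, 420 and 399, and after 24 h 297 and 299. All hypoxic libraries lay below all normoxic ones, and both 24 h libraries held nearly the same level. The log2 fold changes were -1.19 ± 0.24 (SE), -1.08 ± 0.24 and -1.72 ± 0.28, with edgeR adjusted p of 0.00125, 0.00256 and 0.00022, and LAMA5 was called lower in each alternative of test, scaling, filter and libraries.

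LAMB3 levels were 340, 393 and 347 CPM at 0 h, 489, 617 and 632 at 6 h, 584, 571 and 544 at 12 h, and 756 and 843 at 24 h. No hypoxic library overlapped the normoxic ones, and both 24 h libraries lay above all others. Its log2 fold change was 0.69 ± 0.15 at 6 h, 0.66 ± 0.15 at 12 h and 1.15 ± 0.17 at 24 h (edgeR adjusted p = 8.21e-05), and 24 h was called higher than 6 h (0.46, adjusted p = 0.04) and than 12 h (0.50, adjusted p = 0.0418). On library size alone its 3 values against 0 h were positive but not called.

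LAMA3 is the alpha chain of this laminin. Its levels were 53.2, 54.6 and 51.9 CPM at 0 h, 81.3, 84.1 and 75.6 at 6 h, 84.0, 74.5 and 72.1 at 12 h, and 87.9 and 40.5 at 24 h. The libraries at 6 and 12 h lay above normoxia, but the 24 h libraries lay on either side of it. It was called higher at 6 h (0.59 ± 0.21, edgeR adjusted p = 0.0329) and missed the threshold at 12 h (0.53 ± 0.21, adjusted p = 0.0537). The value at 24 h, 0.27 ± 0.24, became -0.45 (adjusted p = 0.0108) without replicate 1, 0.70 (adjusted p = 0.000371) without replicate 2 and -0.53 on library size alone.

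The other chains of the LAMA5 laminins did not fall with it at 6 h. LAMB1 had 61.4, 51.3 and 54.7 CPM at 0 h and 104 and 78.3 CPM at 24 h, with log2 fold changes of 0.43 ± 0.17, 0.57 ± 0.17 and 0.71 ± 0.19, all called (edgeR adjusted p of 0.0499, 0.0148 and 0.00598). Its 24 h value was 0.43 and not called without 24 h replicate 1 (adjusted p = 0.0655), and -0.16 on library size alone. LAMC1, the gamma chain that pairs with LAMA5, had 200, 203 and 196 CPM at 0 h and 248, 251 and 207 at 6 h. At 12 h it had 168, 194 and 180 CPM and at 24 h 156 and 115. Only its 24 h fall was called against normoxia under TMM (-0.56 ± 0.17, edgeR adjusted p = 0.0107), after 0.24 ± 0.15 at 6 h, which became -0.084 on library size alone. With the length and GC offset the 24 h value of LAMC1 was -0.087 and not called, and its 6 h value 0.37 and called. LAMB2 was near the minimum, with 0.133 to 0.144 CPM at 0 h and 0.422 to 0.455 CPM at 6 h. It was called higher at 6 and 12 h (1.64 ± 0.47 and 1.39 ± 0.48) and not at 24 h (0.63 ± 0.66, and -0.31 on library size alone). LAMA1, LAMA2 and LAMC3 were not called at any time against 0 h, at 8.76 to 14, 0.166 to 0.365 and 5.50 to 7.06 CPM as group means.

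Ratios between chains within a library do not depend on the scaling between libraries. Per kilobase, LAMB3 to LAMA5 was 1.15, 1.11 and 1.14 in the normoxic libraries and 5.59, 4.14 and 3.47 at 6 h. It was 3.17, 4.18 and 4.19 at 12 h and 7.83 and 8.66 at 24 h. The ratio thus lay above normoxia in all 8 hypoxic libraries. LAMA5 to LAMA3 went from 18.6 ± 1.49 at 0 h to 5.47 ± 2.08, 6.06 ± 0.681 and 5.46 ± 2.88 (SD) at 6, 12 and 24 h.

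**Figure D3:**
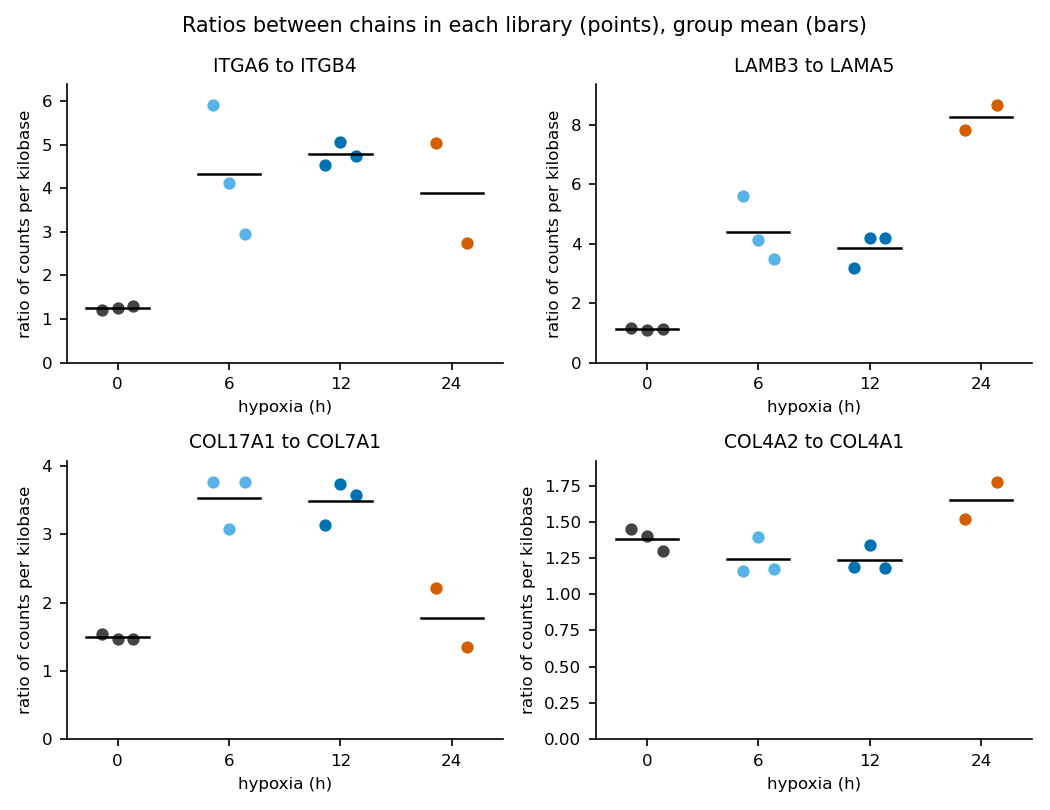
Ratio of counts per kilobase of exon between a pair of chains in each library (points) with the mean of each time point (bars), for ITGA6 to ITGB4, LAMB3 to LAMA5, COL17A1 to COL7A1 and COL4A2 to COL4A1. The first pair of ratios lies higher in all 8 hypoxic libraries than in the 3 normoxic ones, COL17A1 to COL7A1 lies higher at 6 and 12 h and at 2.22 and 1.34 at 24 h, and COL4A2 to COL4A1 stays between 1.16 and 1.78.

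The window before the RefSeq start of LAMA5 (GRCh38.p14, chr20:62367313-62367562, minus strand, 250 bases) is shown because LAMA5 was the laminin called lower at all 3 times. It holds neither form of the core of the hypoxia response element, the sequence bound by hypoxia-inducible factors, which was searched for as ACGTG and GCGTG on both strands, where a CACGTG counts on each strand.
LAMA5: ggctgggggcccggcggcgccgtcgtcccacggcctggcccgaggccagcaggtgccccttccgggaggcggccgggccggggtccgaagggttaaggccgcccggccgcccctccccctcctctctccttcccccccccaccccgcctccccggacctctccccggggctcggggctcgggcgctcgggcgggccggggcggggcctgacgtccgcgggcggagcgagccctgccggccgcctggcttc

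Among collagens, the type IV chains COL4A1 and COL4A2 rose together under TMM, as did COL6A1, a chain of the microfibrillar collagen VI. Under TMM the hemidesmosomal COL17A1 was called higher at 6 and 12 h alone, and COL27A1, a fibril-forming collagen, fell. COL4A5 had the highest level per length at 0 h among the type IV chains, 5.07 CPM per kilobase. COL4A6 had 1.61, COL4A2 1.36 and COL4A1 0.986, and COL4A5 fell at 24 h under TMM. The order below COL4A5 depends on the annotated exons. These sum to 19271 bases for COL4A2 and 9282 for COL4A6, against 6446 and 6750 in their longest transcripts. Of the 25 collagens, 10 were higher and 4 lower at 6 h, 8 and 4 at 12 h, and 7 and 4 at 24 h, and on library size alone 5 and 6, 1 and 8, and 1 and 14. The share of collagens called higher was 40%, 32% and 28%, beside 25.1%, 24.2% and 29.9% of all tested genes, so that at 24 h it lay near that of all genes.

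COL4A1 had 15.2, 14.5 and 13.7 CPM at 0 h, 35.6, 36.1 and 29.3 at 6 h, 23, 25.99 and 25.4 at 12 h, and 18.4 and 23.05 at 24 h. Every hypoxic library lay above every normoxic one, and the 6 h libraries were highest. The log2 fold changes were 1.22 ± 0.14, 0.78 ± 0.14 and 0.52 ± 0.16 (edgeR adjusted p of 2.5e-05, 0.000733 and 0.0124), and the fall from 6 to 24 h was called (-0.70, adjusted p = 0.00452). Without 24 h replicate 2 the 24 h value was 0.33 (adjusted p = 0.0906), and on library size alone it was -0.43.

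COL4A2, its partner chain in the trimer, had 29.0, 26.7 and 23.2 CPM at 0 h, 54.4, 66.2 and 45.0 at 6 h, 35.9, 45.8 and 39.4 at 12 h, and 36.8 and 53.8 at 24 h. Again no library overlapped normoxia. Its log2 fold changes were 1.07 ± 0.18, 0.62 ± 0.18 and 0.78 ± 0.20 (edgeR adjusted p of 0.000429, 0.014 and 0.00516). The 24 h value was 0.46 (adjusted p = 0.0693) without 24 h replicate 2, and -0.19 on library size alone. The ratio of COL4A2 to COL4A1 per kilobase was 1.30 to 1.45 at 0 h, 1.16 to 1.40 at 6 h, 1.18 to 1.34 at 12 h, and 1.52 and 1.78 at 24 h.

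The chains COL4A1 and COL4A2 are transcribed away from each other from neighbouring starts on chromosome 13. Their RefSeq starts lie 127 bases apart, and the 126 bases between them (chr13:110307158-110307283, GRCh38.p14, plus strand, COL4A2 to the right) are shown as the stretch both share. They are 80.2% G and C and hold neither core motif. The window of 250 bases before COL4A2, which reaches further into COL4A1, holds 1 motif and that before COL4A1 holds 0.
COL4A1-COL4A2: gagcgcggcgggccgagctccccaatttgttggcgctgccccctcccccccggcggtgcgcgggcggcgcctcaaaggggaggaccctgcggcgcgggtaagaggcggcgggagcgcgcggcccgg

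The other type IV chains, COL4A5 and COL4A6, also face each other, on the X chromosome, with starts 380 bases apart. COL4A5 had 58.3, 63.3 and 58.8 CPM at 0 h, 72.7, 70.9 and 66.7 at 6 h, 54.2, 50.4 and 54.99 at 12 h, and 35.3 and 32.4 at 24 h. At 6 h its libraries lay above normoxia (a log2 fold change of 0.22, not called, and -0.10 on library size alone) and at 12 and 24 h below it. The fall at 24 h was called (-0.83 ± 0.13, edgeR adjusted p = 0.000176), also against 6 h (-1.05, adjusted p = 0.000149) and 12 h (-0.65, adjusted p = 0.00473). With the length and GC offset the 24 h value against normoxia was -0.30 and not called (edgeR adjusted p = 0.0761). COL4A6 was called higher at 6 h (0.46 ± 0.14) and had values of 0.05 at 12 h and 0.02 at 24 h (-0.41 and -0.89 on library size alone, the latter called). With the length and GC offset its values were 0.14 at 12 h and 0.53 at 24 h, the latter called higher. COL4A4 was not called, and COL4A3 had 64 counts in all.

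COL17A1 had 388, 354 and 355 CPM at 0 h and 692, 704 and 534 at 6 h. At 12 h it had 497, 598 and 550 CPM and at 24 h 404 and 389. It was called higher at 6 h (0.81 ± 0.15, edgeR adjusted p = 0.000788) and 12 h (0.58 ± 0.15, adjusted p = 0.00709). At 24 h the value was 0.12 ± 0.17 (-0.79 on library size alone), and 24 h was called lower than 6 h (-0.70, adjusted p = 0.00689). With the length and GC offset the 24 h value of COL17A1 against normoxia was 0.46 and called higher. COL7A1 had 401, 386 and 386 CPM at 0 h, 292, 364 and 226 at 6 h, 253, 254 and 245 at 12 h, and 290 and 461 at 24 h. Only its fall at 12 h was called (-0.64 ± 0.20, edgeR adjusted p = 0.0164), and the 24 h libraries lay on either side of normoxia. COL17A1 to COL7A1 per kilobase, the ratio of the 2 chains, was 1.49 ± 0.0457 at 0 h, 3.54 ± 0.399 at 6 h, 3.49 ± 0.317 at 12 h and 1.78 ± 0.618 at 24 h (SD).

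COL6A1 had 2.61, 2.69 and 1.92 CPM at 0 h and 4.96 and 6.98 CPM at 24 h. It was called higher at each time (0.66 ± 0.24, 0.75 ± 0.24 and 1.30 ± 0.26; edgeR adjusted p of 0.0313, 0.0185 and 0.000943), and on library size alone at none. COL6A2, which joins it in the trimer, was called at 24 h (1.31 ± 0.34, adjusted p = 0.00463), while COL6A3, the chain that completes it, had 30 counts over all libraries. COL27A1 had 44, 50.1 and 44.8 CPM at 0 h, 29.4 to 31.1 at 6 h, 30.8 to 32.1 at 12 h, and 27.8 and 17.6 at 24 h. Its log2 fold changes were -0.61 ± 0.16, -0.56 ± 0.16 and -1.02 ± 0.18, called lower in each alternative. COL1A1 was called lower at 12 h (-0.50 ± 0.18) and 24 h (-0.86 ± 0.20). With the length and GC offset these values were -0.28 and -0.25, neither called. COL12A1, a collagen that binds along fibrils, was called higher at 6 h (0.93 ± 0.19) and 12 h (0.86 ± 0.19) and had 48.1 and 30.9 CPM at 24 h against 40.2, 52.8 and 41.7 at 0 h.

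The remaining collagens ranged widely in level. COL2A1, the cartilage collagen, had 0.107 to 0.168 CPM at 0 h, 0.584 to 0.777 at 6 h, 0.571 to 0.859 at 12 h, and 0.856 and 1.25 at 24 h, and was called higher in each alternative that tested it. COL14A1 was called higher at all 3 times from 0.0721 to 0.185 CPM at 0 h, with group means up to 0.609 CPM. COL5A2, COL8A2 and COL11A2 were each called higher at some time, and COL5A3, COL9A3 and COL16A1 lower. Not called at any time against normoxia were COL18A1 (32.4 CPM as the highest group mean), COL5A1 (56.2), COL8A1 (1.33), COL23A1 (1.19), COL4A4 (0.595) and COL9A2 (0.531). COL18A1 shares 18.5% of its exonic bases with a gene on the other strand, and the strand setting of the counting is not given in the sources used here.

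**Figure D4:**
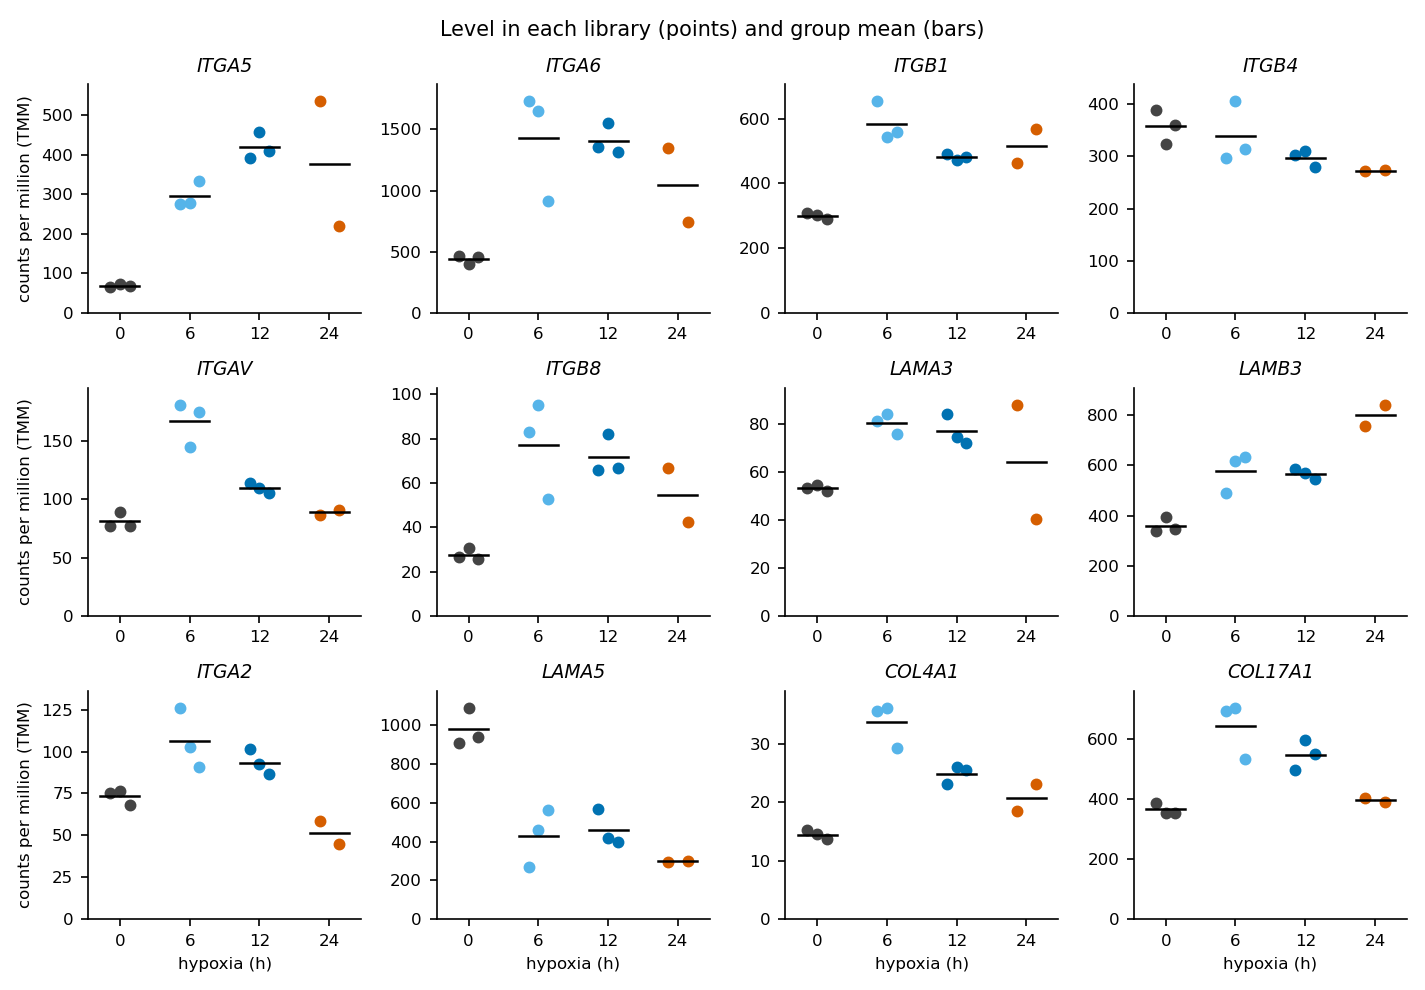
Level of 12 members in each library (points, CPM after TMM scaling) by hours of hypoxia, with the mean of each time point (bars) and the axis from 0. The levels of ITGA5 and ITGA6 lie above normoxia in all hypoxic libraries, ITGB4 does not follow ITGA6, LAMA5 lies below normoxia throughout, and the 24 h libraries are far apart for ITGA5, ITGA6 and LAMA3.

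Among members above 1 CPM the highest mean change over the 3 times was that of the integrin chain ITGA5. Of the 19 chains 10 were higher and 3 lower at 6 h, 6 and 3 at 12 h, and 7 and 4 at 24 h, and on library size alone 6 and 3, 4 and 4, and 1 and 8. Called higher were 52.6%, 31.6% and 36.8% of the chains, beside 25.1%, 24.2% and 29.9% of all tested genes. ITGA5, which with ITGB1 forms the main fibronectin receptor, ITGA6, which binds laminins, and ITGB8, which pairs with ITGAV, rose most among chains above 1 CPM.

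ITGA5 had 65.1, 72.6 and 68.3 CPM at 0 h, 275, 277 and 333 at 6 h, 392, 458 and 409 at 12 h, and 536 and 221 at 24 h. All 8 hypoxic libraries lay far above normoxia, with the 24 h pair at a distance from each other that spanned the 6 and 12 h libraries. The log2 fold changes were 2.10 ± 0.26, 2.61 ± 0.26 and 2.46 ± 0.28 (edgeR adjusted p of 3.24e-05, 1.16e-05 and 1.28e-05). ITGA5 was called higher in each alternative, and its 24 h value was 1.63 without replicate 1 and 2.94 without replicate 2.

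ITGA6 had 466, 399 and 458 CPM at 0 h, 1730, 1650 and 915 at 6 h, 1359, 1552 and 1314 at 12 h, and 1351 and 745 at 24 h. No hypoxic library overlapped normoxia. The log2 fold changes were 1.70 ± 0.27, 1.68 ± 0.27 and 1.25 ± 0.29 (edgeR adjusted p of 0.000209, 0.000293 and 0.00234). At 24 h the value was 0.70 (adjusted p = 0.0324) without replicate 1, 1.59 without replicate 2, and 0.43 and not called on library size alone.

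ITGB4, which pairs only with ITGA6, did not follow it. Its levels were 389, 325 and 360 CPM at 0 h, 296, 406 and 315 at 6 h, 304, 310 and 280 at 12 h, and 271 and 274 at 24 h. The 6 h libraries overlapped normoxia and those at 12 and 24 h lay below it, with log2 fold changes of -0.08 ± 0.15, -0.27 ± 0.15 and -0.39 ± 0.17, none called by edgeR (adjusted p of 0.681, 0.159 and 0.0611). The ratio of ITGA6 to ITGB4 per kilobase was 1.21, 1.24 and 1.29 at 0 h, 5.91, 4.12 and 2.94 at 6 h, 4.53, 5.07 and 4.75 at 12 h, and 5.04 and 2.76 at 24 h.

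ITGB1, the beta chain shared by most laminin, collagen and fibronectin receptors, had 308, 301 and 289 CPM at 0 h. It had 653, 542 and 558 CPM at 6 h, 492, 471 and 481 at 12 h, and 464 and 566 at 24 h. All hypoxic libraries lay above normoxia, with log2 fold changes of 0.96 ± 0.14, 0.69 ± 0.14 and 0.78 ± 0.16 (edgeR adjusted p of 0.00014, 0.00177 and 0.000944). On library size alone the 24 h value was -0.16 and not called. The processed pseudogene ITGB1P1 on chromosome 19 has 609 bases, and all of its 535 windows of 75 bases also occur in ITGB1, where they lie at bases 3766 to 4374 of a transcript of 5614 bases. Its counts were 20.4% to 22.7% of those of ITGB1 in 10 libraries and 10.2% in 24 h replicate 2. Reads of this stretch cannot be told apart between both genes, so the level of ITGB1 is uncertain to that extent. Counts given to ITGB1P1 had log2 fold changes of 0.945, 0.762 and 0.37, the last not called (edgeR adjusted p = 0.128). Its levels were 63.9, 63.5 and 61.4 CPM at 0 h and 105 and 57.55 CPM at 24 h, so that 24 h replicate 2 lay below normoxia.

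ITGB8 had 26.4, 30.7 and 25.8 CPM at 0 h, 83.0, 95.3 and 52.5 at 6 h, 65.9, 82.0 and 66.8 at 12 h, and 66.9 and 42.1 at 24 h. No hypoxic library overlapped normoxia. Its log2 fold changes were 1.48 ± 0.23, 1.37 ± 0.23 and 0.98 ± 0.24 (edgeR adjusted p of 0.000169, 0.000352 and 0.00398), and the last was 0.55 and not called without 24 h replicate 1 (adjusted p = 0.0703). ITGAV, the alpha chain it pairs with, had 77.2, 88.9 and 77.4 CPM at 0 h, 181, 145 and 175 at 6 h, 114, 110 and 106 at 12 h, and 86.9 and 90.8 at 24 h. It was called higher at 6 h (1.04 ± 0.13, edgeR adjusted p = 3.91e-05) and 12 h (0.44 ± 0.13, adjusted p = 0.0136; -0.034 on library size alone) and was 0.13 ± 0.14 at 24 h (-0.79 on library size alone). Its fall from 6 h was called at 12 h (-0.61, adjusted p = 0.0225) and at 24 h (-0.91, adjusted p = 0.000561).

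The other beta chains that pair with ITGAV changed less. ITGB6, an epithelial chain, had 27 to 31.8 CPM at 0 h and 34.5 to 53.5 at 6 h, and was called higher at 6 h (0.57 ± 0.17) and 24 h (0.59 ± 0.18; -0.34 on library size alone). Of its transcript windows, 18% also occur in another annotated gene, so its counts are uncertain. ITGB5 had 20.04 to 22.9 CPM at 0 h and 27.7 to 30.5 at 6 h, was called higher at 6 h alone (0.44 ± 0.13, edgeR adjusted p = 0.0112) and had 20.1 and 22.3 CPM at 24 h.

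Among the alpha chains that pair with ITGB1, the collagen receptor chain ITGA2 had 75.0, 76.7 and 68.3 CPM at 0 h, 126, 103 and 91.0 at 6 h, 102, 92.3 and 86.5 at 12 h, and 58.4 and 44.7 at 24 h. It lay above normoxia in all libraries at 6 and 12 h and below it in both at 24 h. It was the only member called in opposite directions against normoxia, with 0.54 ± 0.15 at 6 h (edgeR adjusted p = 0.0105) and -0.51 ± 0.17 at 24 h (adjusted p = 0.0236; -0.35 with adjusted p = 0.0942 without 24 h replicate 2). On library size alone its 6 h value was 0.22 and not called, and with the length and GC offset its 24 h value was -0.10 and not called. ITGA3, the laminin receptor chain, had 264, 202 and 251 CPM at 0 h, 217 to 233 at 6 h, 218 to 252 at 12 h, and 257 and 182 at 24 h. These libraries overlapped normoxia at every time, with log2 fold changes of -0.09 ± 0.16, -0.06 ± 0.16 and -0.12 ± 0.18.

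The chains called lower at all 3 times were low in level. ITGA2B, known from platelets, had 2.96 to 3.72 CPM at 0 h and 1.12 to 1.88 CPM in the hypoxic libraries (-1.12 ± 0.21, -1.22 ± 0.21 and -0.95 ± 0.25). ITGA7, a laminin receptor chain of muscle, had 3.998 to 4.28 CPM at 0 h and 1.97 to 2.98 in hypoxia (-0.69 ± 0.19, -0.58 ± 0.19 and -0.86 ± 0.23). ITGAX, a leukocyte chain, had 1.35 to 1.57 CPM at 0 h and 0.292 to 1.06 in hypoxia. Those 3 chains did not overlap normoxia at any time. ITGA10, a collagen receptor chain, rose from 0.185 to 0.265 CPM at 0 h to 0.853 to 1.07 at 6 h. ITGAE, which binds E-cadherin, was called at 24 h alone (1.2 ± 0.18, edgeR adjusted p = 0.000121), with 5.08 to 5.81 CPM at 0 h and 10.7 and 14.1 CPM at 24 h (0.24 and not called on library size alone). ITGA4 was called higher at 6 h alone (0.85 ± 0.30), but at all 3 times with the length and GC offset (0.86, 0.78 and 0.94). Under TMM ITGA1, ITGB2 and ITGB7 were not called, with highest group means of 3.36, 0.587 and 2.52 CPM. Exons of ITGA4 and ITGB7 overlap a gene on the other strand over 26.4% and 42.3% of their bases.

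Of the 2 integrin-binding proteins, ITGB1BP1, which binds the tail of ITGB1, had 59.9, 55.7 and 61.0 CPM at 0 h and 120 and 203 CPM at 24 h, and was called higher at all 3 times (0.91 ± 0.17, 0.70 ± 0.17 and 1.45 ± 0.19). ITGB3BP, also known as a centromere protein, had 14.9 to 17.4 CPM at 0 h, 11.3 to 13.8 at 6 h, and 21.7 and 39.9 at 24 h. Only its rise at 24 h was called against normoxia (0.89 ± 0.24, edgeR adjusted p = 0.00575), and this was lost without 24 h replicate 2.

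Windows of 250 bases before the RefSeq starts of the 3 integrin chains with the largest rises above 1 CPM are shown, with the core motifs in capitals (ACGTG or GCGTG, or CACGT or CACGC where they lie on the other strand). The coordinates are chr12:54419267-54419516 on the minus strand for ITGA5, chr2:172427086-172427335 on the plus strand for ITGA6 and chr7:20330650-20330899 on the plus strand for ITGB8, in GRCh38.p14. The ITGA6 window holds a CACGTG, in which 2 motifs overlap, beside a further motif.
ITGA5: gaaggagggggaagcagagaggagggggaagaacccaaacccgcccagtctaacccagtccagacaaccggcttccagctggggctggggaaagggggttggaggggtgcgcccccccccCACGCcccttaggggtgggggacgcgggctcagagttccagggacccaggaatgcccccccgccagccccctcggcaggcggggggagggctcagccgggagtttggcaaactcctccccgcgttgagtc
ITGA6: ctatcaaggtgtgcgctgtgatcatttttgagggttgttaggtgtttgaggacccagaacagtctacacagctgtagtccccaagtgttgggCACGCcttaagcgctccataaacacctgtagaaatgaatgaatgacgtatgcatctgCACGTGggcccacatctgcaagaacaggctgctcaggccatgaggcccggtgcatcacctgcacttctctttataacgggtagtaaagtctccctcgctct
ITGB8: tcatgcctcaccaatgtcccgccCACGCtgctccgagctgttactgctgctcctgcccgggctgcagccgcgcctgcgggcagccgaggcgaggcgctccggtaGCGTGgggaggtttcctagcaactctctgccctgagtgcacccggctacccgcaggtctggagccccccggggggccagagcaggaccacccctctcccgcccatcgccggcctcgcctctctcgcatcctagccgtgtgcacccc

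Of the 56 members, 41 have an entry among the RefSeq promoters used here, and 13 of these (31.7%) hold at least 1 core motif. Of 15325 promoters of protein-coding genes 50.7% hold one, and of 27305 promoters of all genes 43.1%. Among members called higher at all 3 times 4 of 10 with an entry hold it, among those called lower 1 of 3, and among the others 8 of 28. A match is a description of the letters in the window, and no binding was measured.

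Between 6 and 12 h, edgeR called 0 members higher and 2 lower, COL5A2 and ITGAV, against 1.88% and 3.07% of all tested genes. At an unadjusted p under 0.05, COL11A2 alone of the members was higher at 12 h than at 6 h, and DESeq2 called 0 members higher and 6 lower. At 24 h against 6 h, 4 members were higher and 12 lower, against 22.1% and 20.3% of all tested genes. The 4 were LAMB3, ITGAE, ITGB1BP1 and ITGB3BP, and among the 12 were COL4A1, COL4A5, COL4A6, COL5A1, COL12A1, COL17A1, LAMA1, LAMC1, ITGA2, ITGAV and ITGB5. At 24 h against 12 h the same 4 members were higher and COL4A5, COL12A1 and ITGA2 lower, against 15.1% and 13.3% of all tested genes. With the length and GC offset, 24 h against 6 h gave 8 higher and 4 lower, and 24 h against 12 h gave 10 and 2. With this offset 41.9% and 27.8% of all tested genes were called, and 55.2% and 60.4% of those were higher. On library size alone the splits were 1 and 26, and 2 and 16, while 43.3% and 27.3% of all tested genes were called, 14.7% and 15.5% of those higher. Under TMM, higher at 6 h and not called at 24 h were 9 members, COL4A6, COL5A2, COL12A1, COL17A1, LAMA3, LAMB2, ITGA4, ITGAV and ITGB5. The share of all tested genes with this pattern was not computed. With the length and GC offset COL4A6, COL17A1, LAMA3, ITGA4, ITGAV and ITGB5 were called higher at 24 h as well.

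The 24 h libraries differed from each other in many members. Of the 29 calls at 24 h, 16 remained when either library was left out, among them those of COL1A1, COL2A1, COL4A5, COL6A1, COL27A1, LAMA5, LAMB3, LAMC1, ITGA2B, ITGA5, ITGA6, ITGA7, ITGAE, ITGB1 and ITGB1BP1. Without replicate 1, the calls of COL5A3, COL14A1, LAMB1, ITGA10, ITGAX and ITGB8 were lost. Without replicate 2, those of COL4A1, COL4A2, COL6A2, COL8A2, ITGA2, ITGB3BP and ITGB6 were lost. For 14 members the sign of the 24 h value differed between the 2 libraries, and LAMA3 was the only one of these called in both directions.

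**Figure D5:**
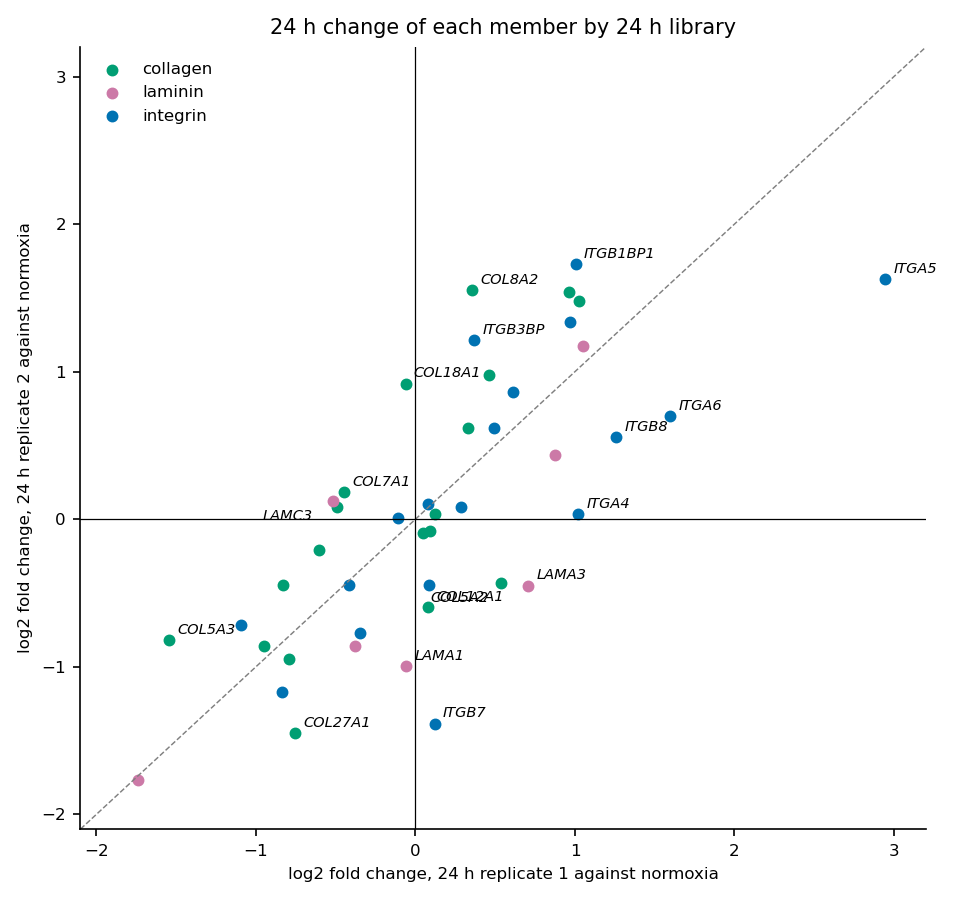
The log2 fold change at 24 h against normoxia in 24 h replicate 1 (horizontal, fitted without replicate 2) and in replicate 2 (vertical, fitted without replicate 1) for 44 members with a mean of at least 1 CPM; the dashed line marks equal values, and members that differ by over 0.6 are named. ITGA5 lies at 2.94 and 1.63, LAMA3 at 0.70 and -0.45, and LAMA5, in the lower left corner, at -1.74 and -1.77.

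Other genes of adhesion and matrix were read from fixed lists. Their counts stand beside shares of all tested genes of 25.1% higher and 27.7% lower at 6 h, 24.2% and 27.1% at 12 h, and 29.9% and 31.3% at 24 h. On library size alone most called genes of the whole table were lower. There 49.3%, 52.9% and 67.7% of all tested genes were called, and 27.6%, 20% and 16.4% of those were higher. Among 14 tested other integrin ligands, 8 were higher and 0 lower at 6 h, 9 and 0 at 12 h, and 8 and 1 at 24 h, on library size alone 6 and 0, 3 and 1, and 2 and 3. At 6 and 12 h 0 of these ligands were lower by edgeR at an unadjusted p under 0.05 as well. At 24 h CCN1, a matricellular ligand, was highest (3.28 ± 0.477), followed by TGFB1 (1.65 ± 0.203), while ADAM9 was called lower (-0.39 ± 0.140). MFGE8 was the next lowest of those called (0.69 ± 0.173). Collagen-processing enzymes gave 7 higher and 2 lower of 15 at 6 h, 7 and 2 at 12 h, and 10 and 2 at 24 h (on library size alone 3 and 2, 3 and 2, and 2 and 5). SERPINH1, the collagen chaperone, was highest with 3.14, 2.98 and 2.50, then TLL1 with 2.14 at 24 h, and ADAMTS14, a procollagen protease, was lowest with -2.86, -2.54 and -2.05. MIA2 was the next lowest of those called at 24 h (-0.75). Matrix proteases and their inhibitors gave 8 and 3 of 18, 6 and 2, and 7 and 2 (5 and 4, 4 and 5, and 5 and 8 on library size alone), from ADAMTS1 (5.91 at 24 h) and MMP3 (2.61) to TIMP2 (-0.76) and TIMP3 (-1.01).

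On the cell side, several counts lay near or below those shares. The 30 genes of the adhesion plaque inside integrins gave 12 higher and 6 lower at 6 h, 10 and 6 at 12 h, and 8 and 8 at 24 h, against 7 and 9, 4 and 9, and 2 and 19 on library size alone. LIMS2 and FHL2 were highest at 24 h (2.05 and 1.58), and TLN2 and TNS2 lowest (-2.96 and -3.17). The 5 hemidesmosome plaque and keratin genes gave 2 and 0, 3 and 0, and 3 and 1 (1 and 0, 2 and 0, and 2 and 1 on library size alone), with KRT14 (2.13), CD151 (1.53), KRT5 (0.73) and PLEC (-0.86) called at 24 h. Other basement membrane genes gave 3 and 2 of 14, 5 and 4, and 4 and 5 (1 and 5, 2 and 5, and 1 and 10 on library size alone), from SMOC2 (4.02) and FRAS1 (1.504) to HSPG2, the perlecan core protein (-1.47), and SMOC1 (-2.06). Other matrix receptors gave 4 and 2 of 11, 6 and 4, and 6 and 4 (0 and 4, 1 and 5, and 0 and 5 on library size alone), from DDR2 (1.62) and SDC2 (1.47) to DAG1, dystroglycan (-1.14), and SDC3 (-1.48).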

How the data were processed

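RNA-seq libraries of RWPE1 cells from normoxia (3) and 6 h (3), 12 h (3) and 24 h (2) of hypoxia were analysed. The authors deposited raw read counts per gene. The submitters' processing notes name FastQC, Trimmomatic, STAR, featureCounts and DESeq2. How featureCounts treated strand and multi-mapping reads is not given in the sources used here. Of the gene identifiers, 60357 were found in GENCODE 44.

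Counts were tested with edgeR 4.0.16 in R 4.3.3 (filterByExpr with a minimum count of 10, TMM, quasi-likelihood test, 11 libraries in 1 fit, 19981 genes, Benjamini-Hochberg adjusted p under 0.05). The biological coefficient of variation was 19.6%. The scripts were tested on simulated data. Alternatives were DESeq2 1.42.0, limma-voom (limma 3.58.1) with and without sample quality weights, other scalings and filters, only the groups compared, a replicate block, an offset for exonic length and GC share, each library left out, and other minimum counts for members.

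The members, the named genes and the other gene lists were chosen with earlier results of these data known. Members were named by role (LAMA3, LAMB3, the chains of the LAMA5 laminins, COL4A1, COL4A2, COL7A1, COL17A1 and the main epithelial integrin chains), and by size as the 2 highest and 2 lowest mean changes per family among those called in 1 direction at all 3 times and above 1 CPM; the rest are accounted for with the counts. In the other lists, the 2 highest and 2 lowest called genes at 24 h are named. Values of 1 member, kept in the counts, and of 1 marker gene are not reported here. Total counts per library limit the precision of members under 1 CPM. Promoter sequences are RefSeq's, on GRCh38.p14.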

Additional observations from a re-analysis of the deposited data

Results flagged for a closer look

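For 8 members the change against normoxia differed between 6 h and 24 h of hypoxia in direction under TMM, with the difference between both times called by edgeR. The share of all tested genes that meet this rule was not computed. Of all tested genes, 42.4% were called at 24 h against 6 h in either direction, so the count is not a trait of the members. Among the laminins, LAMC1 went from a log2 fold change of 0.24 to -0.56, a difference of -0.80 (adjusted p = 0.00254), and LAMA1 from 0.26 to -0.41, a difference of -0.67 (adjusted p = 0.0468). Of the collagens, COL12A1 went from 0.93 to -0.18 (-1.11, adjusted p = 0.00193), COL4A5 from 0.22 to -0.83 (-1.05, adjusted p = 0.000149) and COL5A1 from 0.45 to -0.59 (-1.04, adjusted p = 0.0189). Of the integrin chains, ITGA2 went from 0.54 to -0.51 (-1.05, adjusted p = 0.000743) and ITGB5 from 0.44 to -0.01 (-0.45, adjusted p = 0.025). ITGB3BP moved the other way, from -0.38 to 0.89 (1.27, adjusted p = 0.0013). ITGA2 alone of the 8 was called against normoxia at both times. Both times share the normoxic libraries, and the 24 h values rest on 2 libraries. The change of direction depended on the scaling for 7 of the 8. With the length and GC offset the 24 h values of COL12A1 (0.19), COL5A1 (0.076), LAMA1 (0.014) and ITGB5 (0.37) were positive, as at 6 h. On library size alone COL4A5 (-0.10 and -1.73), LAMA1 (-0.067 and -1.25), LAMC1 (-0.084 and -1.43) and ITGB3BP (-0.69 and -0.12) were negative at both times. ITGA2 kept both signs under these scalings, with 0.22 and -1.38 on library size alone and 0.69 and -0.10 with the offset. However, its 6 h value was not called on library size alone (edgeR adjusted p = 0.457), nor its 24 h value with the offset (adjusted p = 0.528). The 24 h value of COL12A1 was 0.079 without 24 h replicate 2 and that of ITGB5 0.0089 without 24 h replicate 1.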

How the results depend on the processing

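The counts of members called against normoxia (34, 27 and 29 at 6, 12 and 24 h) moved by over 1.5 times with sample quality weights in limma-voom, to 43 at 12 h and 12 at 24 h. The share of all tested genes called moved as well, to 74.6% and 30.9% with these weights from 51.2% and 61.2% by edgeR. These weights also gave 10 calls for 12 h against 6 h, 0 for 24 h against 12 h (6 at an unadjusted p under 0.05) and 6 for 24 h against 6 h, where edgeR gave 2, 7 and 16. They called 22.5%, 5.47% and 12.7% of all tested genes there, and edgeR 4.95%, 28.4% and 42.4%. For 12 h against 6 h, DESeq2 gave 6, only the groups compared 5, the length and GC offset 1, and leaving out both 24 h libraries, chosen after seeing the data, 11. In the same order, 9.62%, 10.7%, 7.31% and 19.2% of all tested genes were called. For 24 h against 12 h, library size alone gave 18, the offset 12 and only the groups compared 0 (7 at an unadjusted p). Beside them stood 27.3% and 27.8% of all tested genes, and 0 of 17807 genes with only the groups compared. For 24 h against 6 h, library size alone gave 27 and only the groups compared 7, beside 43.3% and 22.1% of all tested genes. Leaving out 1 library gave 25 to 39 calls at 6 h, 19 to 33 at 12 h, 25 to 30 at 24 h, 0 to 10 for 12 h against 6 h, 5 to 22 for 24 h against 12 h and 11 to 27 for 24 h against 6 h. The 0 came without 12 h replicate 2 or 3 (10 and 7 at an unadjusted p), the 10 and a 9 without 24 h replicate 1 or 2, and the 22 and 27 without 24 h replicate 1. The cause was not tested.

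The labels number the libraries 1 to 3 in each group, but same-numbered libraries did not deviate together (r over 0.1 in 2 of 15 pairs, from -0.156 to 0.207). With the replicate block, members called were 32, 27 and 29 against normoxia, 1 for 12 h against 6 h, 6 for 24 h against 12 h and 14 for 24 h against 6 h. In the same order, 50.7%, 49.1%, 57.7%, 2.55%, 22.3% and 38.1% of all tested genes were called with the block.

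Over all 56 members, signs turned on library size alone for 7, 12 and 20 at 6, 12 and 24 h, and with the length and GC offset for 2, 4 and 12. Among the members named by role or size they turned on library size alone for LAMC1 at 6 h (-0.084), for ITGA2 (-0.12), ITGAV (-0.034), ITGB5 (-0.20) and ITGB6 (-0.16) at 12 h, and at 24 h for LAMA3 (-0.53), LAMB1 (-0.16), LAMB2 (-0.31), COL4A1 (-0.43), COL4A2 (-0.19), COL17A1 (-0.79), ITGAV (-0.79), ITGB1 (-0.16) and ITGB6 (-0.34). With at least 10 counts in every library they turned at 24 h for COL17A1 (-0.029) and ITGAV (-0.016). With the length and GC offset they turned for ITGA3 (0.062, 0.096 and 0.36 at 6, 12 and 24 h), ITGB4 (0.16 at 6 h and 0.045 at 24 h), COL7A1 (0.46 at 24 h) and ITGB5 (0.37 at 24 h). ITGB5 at 24 h was also 0.0060 by DESeq2, 0.0077 with median-of-ratios scaling and 0.0032 with only the groups compared. With 1 library left out, LAMA3 at 24 h ran from -0.45 (without 24 h replicate 1) to 0.70, ITGA3 at 12 h from -0.17 to 0.015 (without normoxic replicate 1), ITGB4 at 6 h from -0.22 to 0.013 (without 6 h replicate 1), and ITGB5 at 24 h from -0.11 to 0.036 (without normoxic replicate 1; 0.0089 without 24 h replicate 1). COL7A1 at 24 h was 0.18 without 24 h replicate 1, and ITGA3 at 24 h 0.082 without 24 h replicate 2.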
